A study of Mus musculus with 4 samples.

Results

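Interferon-stimulated genes were followed gene by gene, and as a sum, through CD45+ leukocytes of the inflamed muscularis, the outer muscle layer of the small intestine. The members are 44 genes listed by name for their known part in the interferon response, and the rule used no measured value. All 44 were present among the 16308 genes of the count tables. Inflammation followed intestinal manipulation, the surgical handling of the gut. The mice were 12 weeks old, and the 4 groups held 1 library each. These were WT mice of the strain C57BL/6J at 24 h and at 72 h after surgery, and CCR2 KO mice (Ccr2-/-; B6.129S4-Ccr2tm1Ifc/J) at the same times. The CCR2 KO mice lack the chemokine receptor by which monocytes reach inflamed tissue, in every cell and from birth. Each library pooled several mice, so no value of a single mouse can be given. The intervals given are exact, at 95%, and cover counting error only, since any comparison here sets 1 library against another without a replicate check.

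After 7 non-immune cells had been removed, 5804 cells were used, with 1674 from WT and 1770 from CCR2 KO at 24 h and 1315 and 1045 at 72 h. Median unique molecular identifiers (UMIs) per cell ran from 3281.5 in CCR2 KO at 24 h to 12859 in WT at 24 h, and each library shared 1 to 3 cell barcodes with another. In monocyte/macrophage (Mφ)-like cells the targeted gene Ccr2 was at 754 and 1060 CPM in WT at 24 h and 72 h, compared with 95.2 and 82.6 CPM in CCR2 KO. CPM is a gene's UMI count scaled to 1000000 UMIs of the class in that library, so it is relative to the RNA of the class. Cell classes came from clusters that were made without the 44 genes and named from marker lists, and "-like" means no more than that.

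Interferons are secreted proteins that warn neighbouring cells of infection or tissue damage. Type I interferons bind the receptor of Ifnar1 and Ifnar2, and the kinases Jak1 and Tyk2 then pass the signal to a complex that holds Stat2 and Irf9. This complex binds a DNA element, the interferon-stimulated response element (ISRE), in front of genes whose products sense, degrade or trap viral material. Interferon gamma, made mostly by T and natural killer (NK) cells, has its own receptor and induces GTPases and the chemokines Cxcl9 and Cxcl10. In the myeloid cells of sterile wounds the same genes are known to be transcribed without an infection.

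The 44 genes lay on 16 chromosomes, with 7 on chromosome 11, the 6 Ifi200 genes on chromosome 1, the 5 OAS genes on chromosome 5 and the 4 IFIT genes on chromosome 19. Promoter windows of 300 bases, 250 before the start site and 50 after it, were given for 35 of them in RefSeq (GRCm38.p6). The ISRE letters, GAAA followed by any 2 bases and GAAA again, searched on both strands with overlapping matches allowed, stood in the windows of 23 of these 35 genes (65.7%). They stood in 449 of 11845 other genes of the count tables (3.79%), and in 3.99% of all genes with a window. A match is a description of the letters and not a bound site. The following windows belong to Isg15, which gave the most UMIs in neutrophil-like cells, to 3 genes that were concentrated in few cells (Ifit1, Ifit3 and Rsad2) and to the 2 that were least so in monocyte/Mφ-like cells (Bst2 and Irf9). Each is written 5′ to 3′ along the gene, with ISRE letters in capitals. Where the capitals begin with TTTC, the element lies on the other strand.
Isg15, chr4:156200769-156201068, minus strand: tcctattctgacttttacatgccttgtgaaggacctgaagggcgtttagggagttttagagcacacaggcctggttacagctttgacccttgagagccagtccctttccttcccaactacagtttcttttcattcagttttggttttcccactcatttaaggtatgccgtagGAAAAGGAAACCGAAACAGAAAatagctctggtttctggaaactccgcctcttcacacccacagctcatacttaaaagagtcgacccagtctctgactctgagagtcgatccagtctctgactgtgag
Ifit1, chr19:34640639-34640938, plus strand: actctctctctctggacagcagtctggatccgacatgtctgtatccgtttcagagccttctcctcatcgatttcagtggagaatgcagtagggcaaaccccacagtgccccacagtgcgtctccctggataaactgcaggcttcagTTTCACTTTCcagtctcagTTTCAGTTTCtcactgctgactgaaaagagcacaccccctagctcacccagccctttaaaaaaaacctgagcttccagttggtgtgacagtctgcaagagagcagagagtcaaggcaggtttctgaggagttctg
Ifit3, chr19:34583279-34583578, plus strand: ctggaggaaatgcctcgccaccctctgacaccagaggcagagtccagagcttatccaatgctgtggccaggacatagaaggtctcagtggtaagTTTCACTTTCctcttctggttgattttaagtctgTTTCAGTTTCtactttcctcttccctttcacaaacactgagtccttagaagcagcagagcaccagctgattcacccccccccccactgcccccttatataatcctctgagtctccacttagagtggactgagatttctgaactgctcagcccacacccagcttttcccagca
Rsad2, chr12:26456403-26456702, minus strand: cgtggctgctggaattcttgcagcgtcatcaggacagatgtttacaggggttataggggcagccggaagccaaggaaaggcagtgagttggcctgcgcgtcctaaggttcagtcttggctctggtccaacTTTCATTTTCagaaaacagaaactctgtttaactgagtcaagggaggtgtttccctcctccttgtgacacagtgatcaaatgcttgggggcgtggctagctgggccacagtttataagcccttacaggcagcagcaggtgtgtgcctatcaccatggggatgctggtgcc
Bst2, chr8:71537423-71537722, minus strand: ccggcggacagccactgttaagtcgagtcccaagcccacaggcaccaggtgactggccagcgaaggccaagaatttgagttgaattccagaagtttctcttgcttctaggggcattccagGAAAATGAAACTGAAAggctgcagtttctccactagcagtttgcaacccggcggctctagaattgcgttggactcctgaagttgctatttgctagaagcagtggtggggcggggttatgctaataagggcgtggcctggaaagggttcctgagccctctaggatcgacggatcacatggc
Irf9, chr14:55603735-55604034, plus strand: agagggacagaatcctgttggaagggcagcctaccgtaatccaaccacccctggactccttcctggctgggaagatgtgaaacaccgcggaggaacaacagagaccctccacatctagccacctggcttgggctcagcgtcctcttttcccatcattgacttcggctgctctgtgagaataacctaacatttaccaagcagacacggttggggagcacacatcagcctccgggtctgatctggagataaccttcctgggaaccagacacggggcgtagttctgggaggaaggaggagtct
Isg15 held 3 overlapping matches, the first 78 bases before the start site, and Ifit1, Ifit3 and Bst2 held 2 each. Rsad2 held 1 match, 120 bases before the start site, and Irf9 none in the window shown. Bst2 thus held as many matches as Ifit3.

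Over all cells the summed level of the 44 genes was 5636 CPM in WT and 6405 CPM in CCR2 KO at 24 h, and 3110 and 2658 CPM at 72 h. The cells behind these sums differed. Monocyte/Mφ-like cells held 89.9% of the UMIs of the 44 genes in WT at 24 h and 86.1% in WT at 72 h, but 24.2% and 27.2% in CCR2 KO. Of all UMIs they held 90.5% and 74.2% in WT and 34.9% and 21.4% in CCR2 KO. In CCR2 KO at 24 h, neutrophil-like cells held 64.2% of the UMIs of the 44 genes, beside 39.4% of all UMIs. Dendritic cell-like cells held the largest share of the 44 genes in CCR2 KO at 72 h, 30.1%, beside 39.5% of all UMIs.

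Within classes, neutrophil-like cells had the highest sum at 24 h. It was 9151 CPM (8933 to 9373) in 296 WT cells and 10439 CPM (10341 to 10539) in 1294 CCR2 KO cells. Monocyte/Mφ-like cells were at 5595 CPM (5561 to 5628) in 1276 WT cells and 4439 CPM (4371 to 4508) in 220 CCR2 KO cells. At 72 h the 2 classes were closer together, with 3164 and 4577 CPM in neutrophil-like cells of WT and CCR2 KO, and 3609 and 3377 CPM in monocyte/Mφ-like cells.

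These levels are relative to a small cell's RNA. A neutrophil-like cell held a median of 2092 to 4685 UMIs in the 4 libraries, and a monocyte/Mφ-like cell 12467.5 to 15776.5. Per cell, the 44 genes gave 22.6, 33.1, 9.02 and 22.9 UMIs in neutrophil-like cells. Here and in what follows, 4 values in a row are for WT and CCR2 KO at 24 h, then WT and CCR2 KO at 72 h. In monocyte/Mφ-like cells they gave 84.2, 73.4, 51.3 and 46.3 UMIs, more than in neutrophil-like cells of every library. In the 3 libraries other than WT at 72 h this is the opposite of the order in CPM.

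Dendritic cell-like cells had a sum of 4647 CPM in WT and 2953 CPM in CCR2 KO at 24 h, and 1494 and 2030 CPM at 72 h. In CCR2 KO at 24 h, T cell-like cells were at 3366 CPM in 46 cells, above the dendritic cell-like value. NK cell-like cells were at 2292 CPM in 28. B cell-like cells were lowest in that library, at 1393 CPM (1269 to 1527) in 36 cells. In WT at 72 h the 20 B cell-like and 31 T cell-like cells, at 2189 and 2253 CPM, also carried monocyte/Mφ markers at 34163 and 9649 CPM, against 285 and 151 CPM in CCR2 KO at 72 h, and their part in the sums was not tested.

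**Figure D1:**
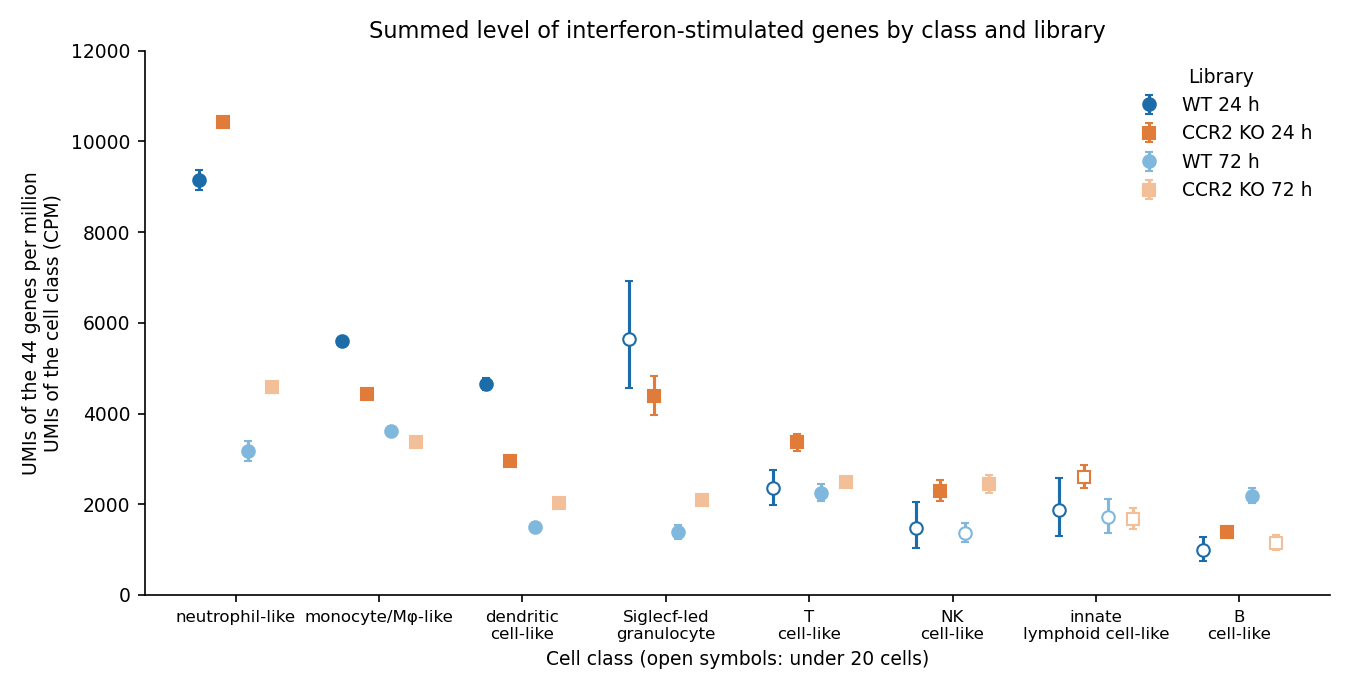
Summed UMIs of the 44 interferon-stimulated genes per 1000000 UMIs of each class (y axis, CPM) by cell class (x axis) and library (colours and symbols). Bars are exact 95% Poisson intervals and open symbols stand for under 20 cells. Neutrophil-like cells lay highest at 24 h, at 9151 and 10439 CPM, and were at 3164 and 4577 CPM at 72 h.

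Which genes made up the sum depended on the class. Over all cells Bst2, the membrane tether that holds budding virus at the cell surface, gave the most UMIs (24845, 9.43% of the sum), followed by Isg15 (21850), a small protein that is linked to others much as ubiquitin is. In CCR2 KO at 24 h the order was the other way, with 8872 UMIs of Isg15 and 3926 of Bst2. Next came Slfn5, Ifi204, Rtp4, Ifi207, Trim30a, Irf7, Oasl2 and Zbp1, and these 10 genes held 56.3% of the UMIs. With 3′ counting, UMIs do not scale with transcript length.

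Bst2 and Isg15 differed between the classes in opposite directions. Bst2 was at 616, 640, 406 and 467 CPM in monocyte/Mφ-like cells. In neutrophil-like cells it was at 69.7, 107, 27.9 and 39.8 CPM, so every neutrophil-like value lay below every monocyte/Mφ-like value. Isg15 was at 424, 379, 116 and 135 CPM in monocyte/Mφ-like cells and at 1448, 1702, 418 and 537 CPM in neutrophil-like cells, higher in neutrophil-like cells of each library.

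Other abundant genes varied in which class was higher. Slfn5, a member of the Schlafen family, was at 324, 234, 234 and 158 CPM in monocyte/Mφ-like cells and 436, 532, 183 and 223 CPM in neutrophil-like cells. Trim30a, a ubiquitin ligase that damps NF-κB signalling, was at 230, 175, 175 and 197 CPM compared with 683, 573, 287 and 265 CPM. Each was higher in the neutrophil-like cells at 24 h, by a smaller factor than Isg15. Rtp4, a receptor chaperone that restricts flaviviruses, was at 295, 194, 144 and 145 CPM compared with 645, 722, 359 and 453 CPM. Ifit1, the most abundant IFIT gene, was at 98.3, 69.9, 49.4 and 34.5 CPM compared with 473, 453, 43.8 and 180 CPM, so in WT at 72 h the classes were at like levels. Ifi47, the most abundant of the interferon-inducible GTPases, was at 132, 99.3, 79.5 and 102 CPM compared with 101, 167, 23.9 and 58.4 CPM, and its order changed with the library.

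In single libraries, 16 of 42 genes past a filter on low values were at least 2-fold higher in neutrophil-like than in monocyte/Mφ-like cells of WT at 24 h (background over all genes 17.7%) and 8 at least 2-fold lower (47.6%). In CCR2 KO at 24 h it was 23 of 42 higher (19.2%) and 8 lower (42.6%). In WT at 72 h it was 7 of 40 higher (16.4%) and 19 lower (42.9%), and in CCR2 KO at 72 h 13 of 41 higher (14.8%) and 8 lower (48.9%). The filter on low values asked for 20 CPM in 1 of the classes and 10 UMIs in both together.

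Across the 4 libraries, 7 of the 38 genes that passed in all of them were at least 2-fold higher in neutrophil-like than in monocyte/Mφ-like cells of every library (background over all genes 11.3%). These were Isg15, Isg20, Rsad2, Oas3, Oasl1, Oasl2 and Rtp4. Isg20, an exonuclease that degrades RNA, differed most, at 321, 287, 79.7 and 174 CPM in neutrophil-like cells and 27.7, 18.2, 13.0 and 7.29 CPM in monocyte/Mφ-like cells, a ratio of 6.14 to 23.9. Rsad2, or viperin, which makes a chain-terminating nucleotide against viral polymerases, was at 622, 596, 143 and 371 CPM compared with 102, 69.0, 51.5 and 27.7 CPM. The OAS genes make the messenger that switches on RNase L, and their relative Oasl2 was at 544, 929, 514 and 453 CPM compared with 182, 147, 127 and 117 CPM.

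Another 5 of the 38 were at least 2-fold lower in neutrophil-like cells of every library (background 31.1%). With zeros set to the limit of 3 counts and no filter on low values it was 6 of the 44, namely Bst2, Ifi209, Ifi211, Ifi213, Mx1 and Phf11b. The background of 31.1% does not belong to these 6, and no share over all genes was computed for that rule. Mx1, a GTPase that blocks influenza virus and whose protein is defective in C57BL/6 mice, was at 51.6, 33.8, 29.1 and 18.5 CPM in monocyte/Mφ-like cells. In neutrophil-like cells it gave 0, 1, 0 and 0 UMIs, which made monocyte/Mφ-like cells at least 12.6-fold higher in WT at 24 h when the 0 was set to that limit. Phf11b was at 133, 99.8, 89.2 and 91.8 CPM compared with 1, 4, 0 and 0 UMIs. Ifi44 gave 0 UMIs in neutrophil-like cells of all 4 libraries, but at 5.78 to 20.6 CPM in monocyte/Mφ-like cells the limit of 11.96 CPM in WT at 72 h allows little to be read from that library.

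The Ifi200 family, DNA-binding proteins of which some sense foreign DNA, was split. Ifi204 was at 386, 269, 236 and 214 CPM in monocyte/Mφ-like cells and 368, 397, 63.8 and 154 CPM in neutrophil-like cells, near-equal in WT at 24 h. Ifi213 was at 52.4, 35.2, 48.1 and 34.5 CPM compared with 2.73, 2.44, 0 and 0.884 CPM. Ifi205 was highest in dendritic cell-like cells, at 135, 142, 59.7 and 151 CPM, compared with 32.8, 65.7, 8.68 and 12.6 CPM in monocyte/Mφ-like cells. The family members are near-identical in places, as are Ifit3 and Ifit3b, so reads may have been split or dropped between them and single values are uncertain.

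**Figure D2:**
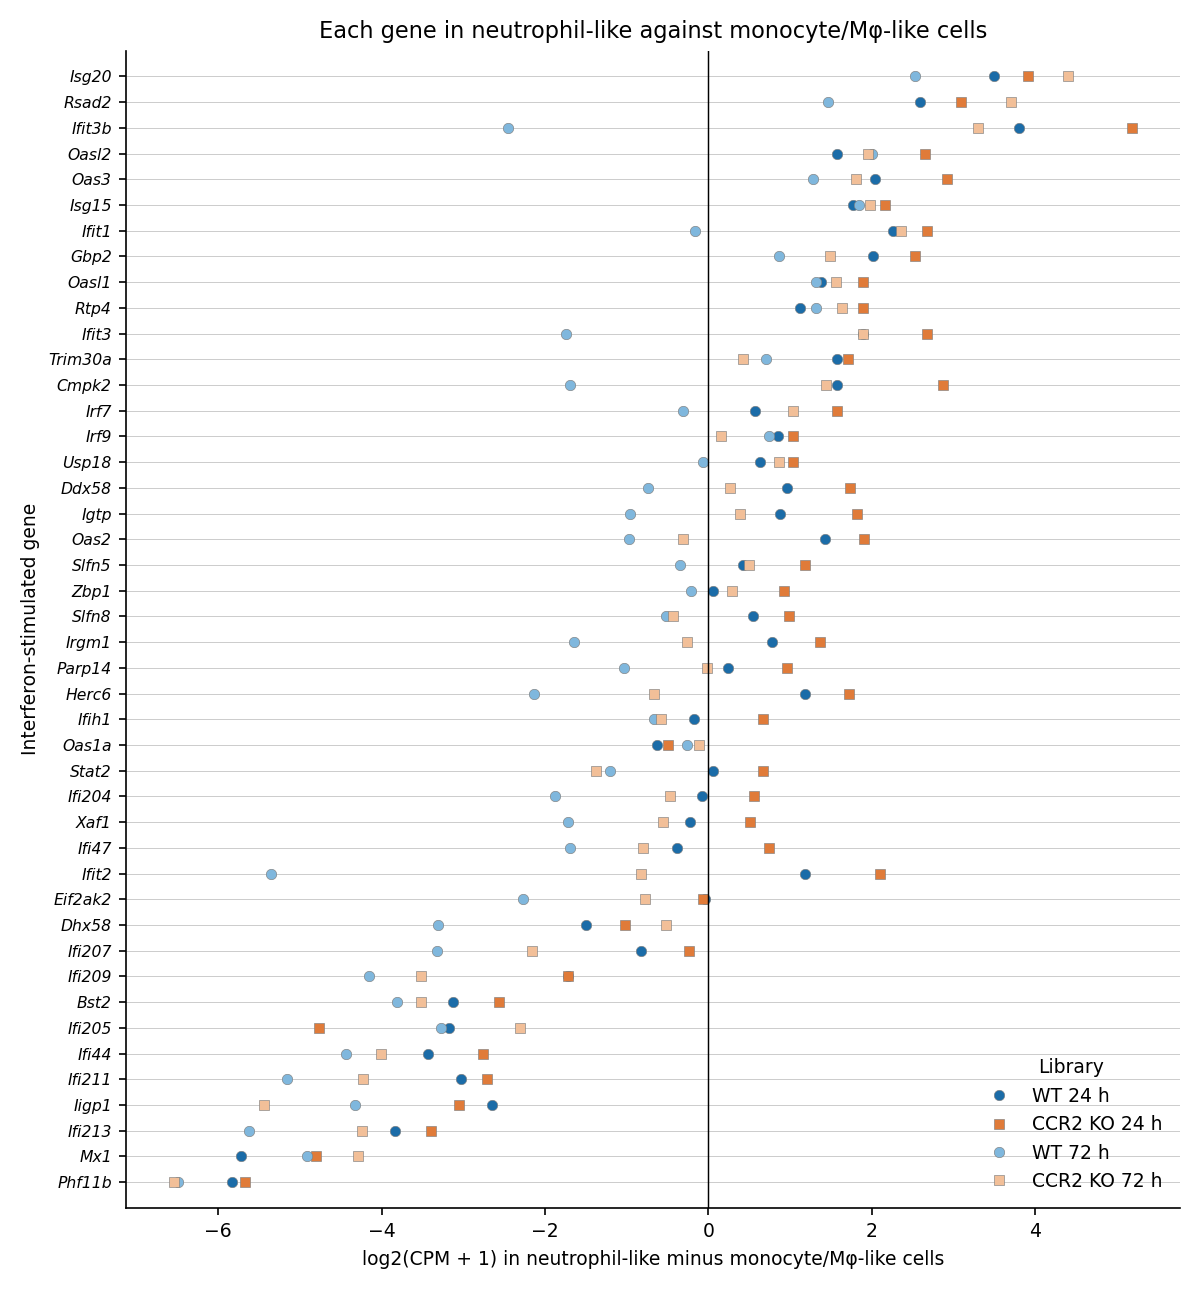
Difference between neutrophil-like and monocyte/Mφ-like cells in log2(CPM + 1) (x axis) for each of the 44 genes (y axis, ordered by the mean of the 4 libraries), with 1 symbol per library. Isg20, Rsad2 and Isg15 lay to the right of 0 in all 4 libraries and Phf11b, Mx1 and Bst2 to the left, while Ifit1 and Ifit3 lay to the left in WT at 72 h and to the right in the other 3 libraries.

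The level of the 44 genes was uneven from cell to cell. Cells were thinned to 1000 UMIs each, which left out 2 to 20 shallower cells per library in these classes, and a cell was called high when the 44 genes gave at least 10 of the 1000 UMIs. Among neutrophil-like cells at 24 h, WT had 34.9% high (29.3 to 40.8) and CCR2 KO 38.6% (35.9 to 41.3). The shares were 5.81% (1.91 to 13.0) and 10.45% (6.74 to 15.3) at 72 h. Among monocyte/Mφ-like cells 16.0% (14.1 to 18.2) and 8.84% (5.40 to 13.5) were high at 24 h, and 4.91% (3.56 to 6.57) and 1.54% (0.187 to 5.45) at 72 h. In B cell-like cells of CCR2 KO at 24 h, whose Isg15 level of 36.4 CPM compares with 1702 CPM in neutrophil-like cells of the same library, 1 of 36 cells was high (2.78%, 0.0703 to 14.5). Their median depth was 5328.5 UMIs, compared with 2974.5 UMIs in the neutrophil-like cells.

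High cells held most of the neutrophil-like UMIs of these genes at 24 h, 77.9% in WT and 76.1% in CCR2 KO, and 40.5% and 32.2% of the monocyte/Mφ-like ones. The cut is a point on a continuous range and not a cell type, and 207 of the 1266 monocyte/Mφ-like cells of WT at 24 h had 8 to 11 such UMIs. At 5 of 1000 UMIs the high shares at 24 h were 57.2% and 64.8% in neutrophil-like cells and 52.1% and 36.3% in monocyte/Mφ-like cells.

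Genes differed in how far they were concentrated in these cells. For each gene, cells were called high on the other 43 genes, and its level was compared with that in the remaining cells of the class. In monocyte/Mφ-like cells of WT at 24 h all 44 genes were higher in the high cells, 35 of them at least 2-fold. Among genes outside the 44, 1.32% were at least 2-fold higher in cells high for the sum. Since the cells were chosen on related genes, this is a description.

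Ifit2, Ifit3 and Ifit1, the last of which binds viral RNA that lacks a host cap, were 11.2, 10.8 and 7.52 times higher in the high cells. Rsad2 was 10.2 times higher, and Cmpk2, a mitochondrial nucleotide kinase encoded next to Rsad2, 10.3 times higher. At the other end were Irf9 (1.23 times), Bst2 (1.60 times), Oas1a (1.66 times) and Ifi207 (1.68 times). In neutrophil-like cells of CCR2 KO at 24 h, 38 of the 39 genes with at least 10 UMIs were at least 2-fold higher in the high cells (2.27% of genes outside the 44), from 1.81 times for Irf9 to 58.8 times for Ifit2. Ifit3, Ifit3b and Ifit1 came next there, at 18.4, 13.9 and 12.8 times. Ifit2 was thus highest and Irf9 lowest in both classes. At least 2-fold higher were also 42 of 44 genes in monocyte/Mφ-like cells of WT at 72 h (2.87% of other genes), 35 of 37 in neutrophil-like cells of WT at 24 h (8.7%) and 32 of 33 in those of CCR2 KO at 72 h (9.88%). A gene of those 37 had no UMI outside the high cells, so its ratio is undefined and it is not counted among the 35.

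**Figure D3:**
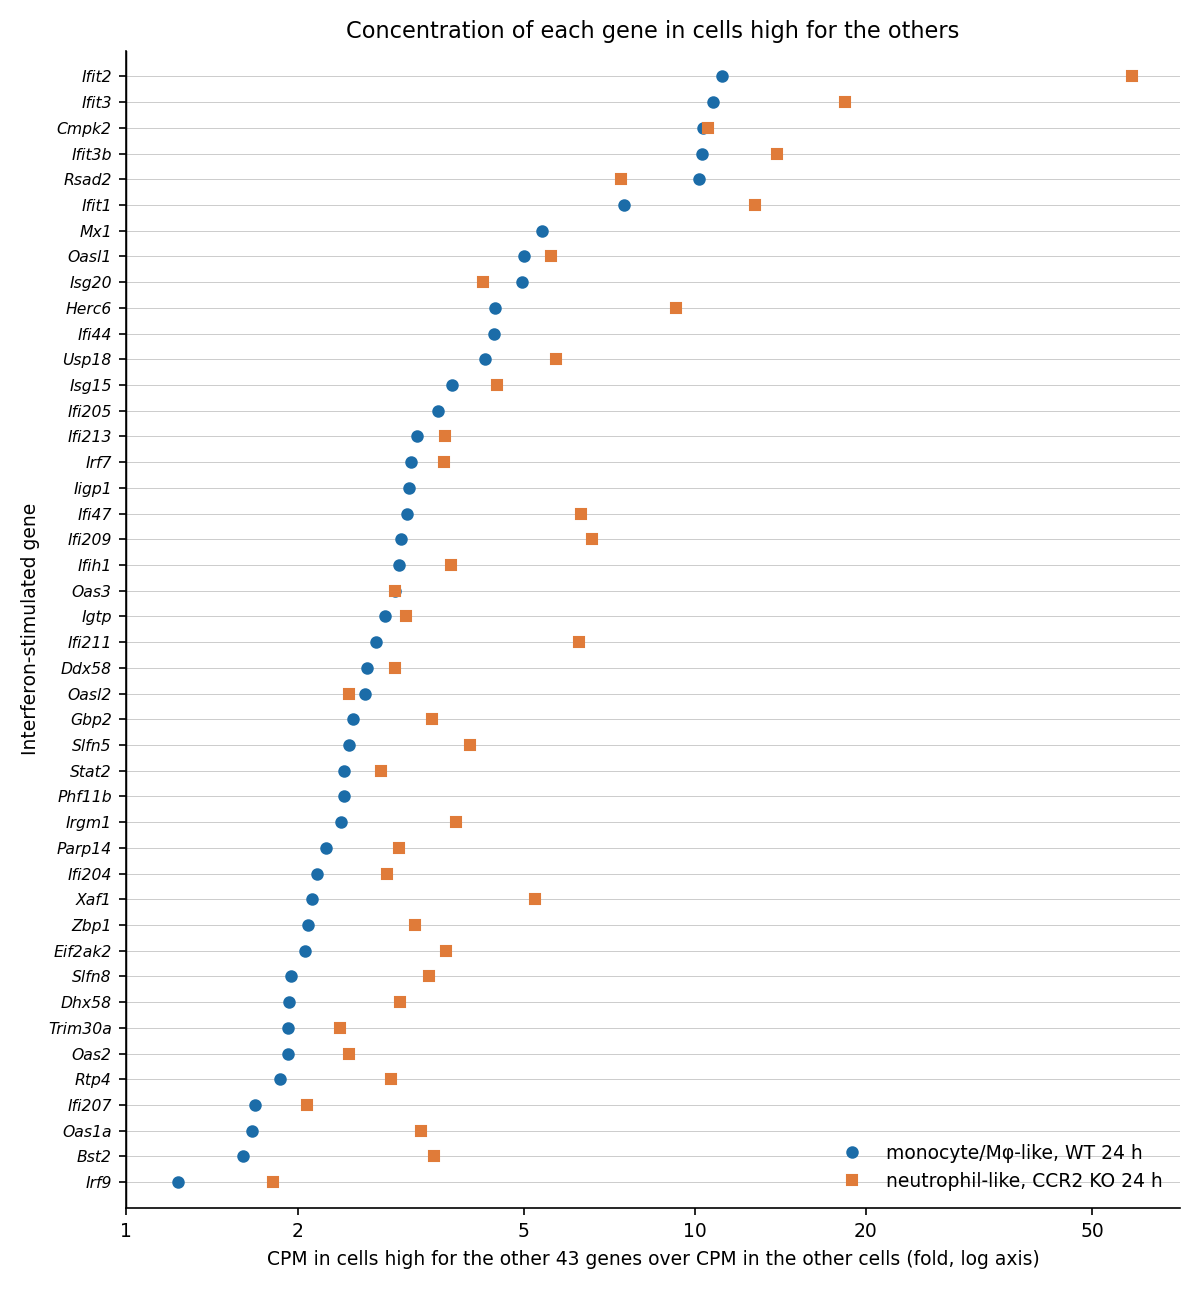
Level of each gene in cells that were high for the other 43 genes over its level in the other cells of the class (x axis, fold, log axis), for monocyte/Mφ-like cells of WT 24 h (circles) and neutrophil-like cells of CCR2 KO 24 h (squares, shown where the gene had at least 10 UMIs). Ifit2 lay highest in both, at 11.2 and 58.8 times, and Irf9 lowest, at 1.23 and 1.81 times.

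To ask how the loss of CCR2 bore on these genes in the cells of the monocyte lineage, monocyte/Mφ-like cells were compared between genotypes. At 24 h the sum was lower in CCR2 KO by a log2 ratio of -0.33 (-0.36 to -0.31). Of the 41 genes past the filter (at least 20 CPM in 1 of the libraries and 10 UMIs in both together), 38 were lower in CCR2 KO and 3 higher, with a median difference of -0.44, compared with -0.07 over all genes. Few were past 2-fold, with 1 gene lower (background 1.24%) and 0 higher (background 2.71%). The other 3 of the 44 genes did not pass the filter. Most differences were thus small and in 1 direction.

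The gene past 2-fold was Cmpk2, at 25.5 CPM in WT and 11 CPM in CCR2 KO (-1.14 on the log2(CPM + 1) scale, -1.71 to -0.75). It was followed by Oas3 (54.6 and 27.0 CPM, -0.99) and Ifit2 (36.2 and 18.98 CPM, -0.90). Irf7, the transcription factor that amplifies type I interferon production, was at 276 CPM in WT and 157 CPM in CCR2 KO (-0.80). All 5 nucleic acid sensors were lower, among them Zbp1, a sensor of left-handed nucleic acids (220 and 162 CPM), and Ddx58, which encodes RIG-I (76.4 and 53.1 CPM). The 3 genes that were not lower were Bst2 (0.05), Ifi211 (0.06) and Ifi205, the last at 32.8 CPM in WT and 65.7 CPM in CCR2 KO (0.98). With TMM scaling, which put the sum at -0.45, Bst2 and Ifi211 also lay below 0.

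The class was not made of the same clusters in the 2 genotypes. In WT at 24 h a cluster led by Chil3, Vcan and Plac8 held 599 cells and one led by Ppbp, Ccl7 and Spp1 held 564, compared with 52 and 103 cells in CCR2 KO. A cluster led by Cd81, Lilra5 and Mmp13 held 28 WT and 53 CCR2 KO cells. Within them the sum was 6065 and 5688 CPM, 5368 and 4264 CPM, and 3563 and 3451 CPM in WT and CCR2 KO. The CCR2 KO value was below the WT value in each of the 3, and the Cd81 cluster was the lowest of them in both genotypes. Neutrophil markers summed to 842 CPM in the WT and 271 CPM in the CCR2 KO monocyte/Mφ-like cells, and their part in the difference was not tested.

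At 72 h the sum in monocyte/Mφ-like cells was close between genotypes, with a log2 ratio of -0.10 (-0.13 to -0.06), which ran to -0.28 under other choices of processing. Of 41 genes past the filter, 24 were lower and 17 higher in CCR2 KO, with 1 at least 2-fold lower (background 2.51%) and 1 at least 2-fold higher (background 5.22%). With at most 5% mitochondrial UMIs, which left 53 CCR2 KO cells, 6 of 39 were at least 2-fold lower (4.53% of all genes). Without that limit the lower one was Irf7, at 219 CPM in WT and 101 CPM in CCR2 KO (-1.10, -1.32 to -0.91), so its level over the class was lower at both times. Rsad2 (51.5 and 27.7 CPM, -0.87) and Usp18, the protease that removes Isg15 and dampens the interferon receptor (29.4 and 16.5 CPM, -0.79), came next. The higher one was Iigp1, a GTPase that attacks the vacuoles of intracellular parasites, at 19.1 CPM in WT and 42.3 CPM in CCR2 KO (1.11, 0.78 to 1.51). Ifi211 (34.6 and 51.0 CPM, 0.55) and Cmpk2 (15.2 and 21.9 CPM, 0.50) followed. The genotypes differed in clusters here too. One led by Apoe, Selenop and Ms4a7 held 518 WT and 6 CCR2 KO cells, and the Cd81 cluster 55 and 83. Within the Cd81 cluster Irf7 was at 159 CPM in WT and 117 CPM in CCR2 KO, compared with 86.4 and 117 CPM at 24 h. In the Chil3 and Ppbp clusters at 24 h Irf7 was lower in CCR2 KO, at 310 and 227 CPM and at 258 and 140 CPM. The part of the cluster make-up was not tested.

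The comparison of 72 h with 24 h asked how these genes stood as inflammation resolves. The sum in monocyte/Mφ-like cells was lower at 72 h, with a log2 ratio of -0.63 in WT (interval -0.65 to -0.62) and of -0.39 in CCR2 KO (interval -0.44 to -0.35; -0.62 with TMM scaling). In WT, 37 of 42 genes past the filter were lower at 72 h, with a median of -0.58 (-0.05 over all genes). Of these 8 were at least 2-fold lower (background 6.34%) and 1 at least 2-fold higher (background 6.54%). Isg15 was lowest relative to 24 h, from 424 to 116 CPM (-1.86), followed by Ifi205 (32.8 to 8.68 CPM, -1.80) and Zbp1 (220 to 102 CPM, -1.11). Usp18, Isg20, Rtp4, Ifi209 and Ifi211 were the others past 2-fold. The highest were Ifi44 (9.79 to 20.6 CPM, 1.0), Oas2 (37.5 to 48.0 CPM, 0.35) and Herc6, the ligase that attaches Isg15 to its targets in the mouse (34.9 to 38.3 CPM, 0.13).

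In CCR2 KO, 4 of 41 genes were at least 2-fold lower at 72 h (background 4.87%) and 1 at least 2-fold higher (background 9.85%). Ifi205 (65.7 to 12.6 CPM, -2.29), Isg15 (379 to 135 CPM, -1.48), Usp18 (45.7 to 16.5 CPM, -1.41) and Rsad2 (69.0 to 27.7 CPM, -1.29) were lower. Iigp1 was higher (9.35 to 42.3 CPM, 2.06), and Cmpk2 (11 to 21.9 CPM, 0.93) and Oas2 (30.3 to 48.6 CPM, 0.67) came after it. Ifi205, Isg15 and Usp18 were thus at least 2-fold lower at 72 h in both genotypes. The role groups moved unequally in WT. The ISG15 system, made up of Isg15, Usp18 and Herc6, went from 520 to 184 CPM, and the transcription factors Irf7, Irf9 and Stat2 only from 411 to 348 CPM.

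By 72 h the WT class consisted mainly of a cluster led by Apoe, Selenop and Ms4a7 (518 cells, 3983 CPM for the sum) and one led by Ear2, Mgl2 and Axl (171 cells, 3058 CPM), which held 11 and 9 WT cells at 24 h. In the 4 WT clusters with at least 15 cells at both times the sum was lower at 72 h in each, for example 6065 and 4257 CPM in the Chil3 cluster. In CCR2 KO this held in 1 of 2 clusters, and the Cd81 cluster was at 3451 CPM at 24 h and 3538 CPM at 72 h.

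In neutrophil-like cells the sum was lower at 72 h by wider margins. The log2 ratio was -1.53 in WT, with an interval of -1.64 to -1.43, and -1.19 in CCR2 KO, with one of -1.23 to -1.15. In WT all 37 genes past the filter were lower at 72 h and 31 of them at least 2-fold (background 7.59%), with a median of -2.0 compared with 0.18 over all genes. In CCR2 KO 36 of 37 were lower and 26 at least 2-fold (background 7.11%), with a median of -1.29 compared with -0.09. None was at least 2-fold higher in either genotype (background 10.9% and 3.81%), and 24 of 37 genes were at least 2-fold lower in both. The share of all genes that were lower in both was not computed. The WT class at 72 h held 88 cells, and 9 of the 44 genes were at 0 there.

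Among the role groups, the sum of the IFIT genes differed by the largest factor with time in WT. Their sum was 899, 924, 59.8 and 385 CPM in neutrophil-like cells. Ifit2 went from 83.3 CPM in WT at 24 h to 0 at 72 h, at least 6.97-fold lower, and Ifit3b from 79.2 CPM to 0, at least 6.63-fold lower. Cmpk2 went from 77.9 to 3.99 CPM, the latter from 1 UMI (-3.98, -9.62 to -1.75). Ifit3 went from 264 to 15.9 CPM (-3.97). In CCR2 KO the lowest were Ifit2 (84.8 to 13.3 CPM, -2.59), Ifi209 (46.0 to 7.07 CPM, -2.54) and Herc6 (104 to 19.5 CPM, -2.36).

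Other genes were closer at the 2 times. Oasl2 was at 544 and 514 CPM in WT at the 2 times (-0.08, -0.38 to 0.21), Irf9 at 145 and 124 CPM (-0.23) and Oas1a at 54.7 and 39.9 CPM (-0.45), each with an interval that included 0. In CCR2 KO, Oas1a was at 58.7 and 56.6 CPM (-0.05), Cmpk2 at 86.7 and 61.0 CPM (-0.50) and Dhx58, a helicase that tunes RIG-I signalling, at 22.2 and 31.8 CPM (0.50). The OAS family sum was at 1048 and 737 CPM in WT and at 1429 and 758 CPM in CCR2 KO, and no family sum was lower by a smaller factor in WT. Oasl2 made up 514 of the 737 CPM in WT at 72 h. In WT at the 2 times Oas2 was at 102 and 23.9 CPM, Oas3 at 227 and 87.7 CPM and Oasl1 at 120 and 71.7 CPM.

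The lower sum at 72 h was seen within clusters too. It was lower at 72 h in each of the 3 WT and the 5 CCR2 KO neutrophil-like clusters with at least 15 cells at both times. The cluster with the highest sum at 24 h, led by Cxcr2, Lrg1 and Trim30b, was at 14482 CPM in WT and 14469 CPM in CCR2 KO at 24 h, and at 2938 and 7119 CPM at 72 h. Monocyte/Mφ markers summed to 3543, 1667, 2303 and 2604 CPM in neutrophil-like cells and stress-response genes to 14862, 16057, 13494 and 11344 CPM, and their part was not tested.

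Between genotypes at 24 h, neutrophil-like cells taken as 1 class differed little, with a log2 ratio of the sum of 0.19 (0.15 to 0.23), which as a mean over cells was -0.039. None of the 37 genes past the filter was 2-fold lower (background 2.17%) or 2-fold higher (background 6.27%). The median difference of 0.16 compares with 0.11 over all genes. The highest were Oasl2 (544 and 929 CPM in WT and CCR2 KO, 0.77), and the GTPases Igtp (91.5 and 153 CPM, 0.74) and Ifi47 (101 and 167 CPM, 0.72), which guard against intracellular bacteria. The lowest were Eif2ak2, the kinase PKR that halts translation on double-stranded RNA (80.6 and 62.1 CPM, -0.37), Trim30a (683 and 573 CPM, -0.25) and Ifi209 (54.7 and 46.0 CPM, -0.24). Within clusters the sum was lower in CCR2 KO in 2 of 5. It ran from -0.55 in the cluster led by Hcar2 (11728 CPM in 16 WT cells and 8010 CPM in 239 CCR2 KO cells) to 0.38 in that led by Retnlg. A cluster led by Il1r2, G0s2 and Ptgs2 held 35 WT and 641 CCR2 KO cells, and the part of the cluster make-up was not tested.

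At 72 h the sum in neutrophil-like cells was higher in CCR2 KO (0.53, 0.42 to 0.64). Among thinned cells, 5 of 86 in WT and 23 of 220 in CCR2 KO were high. The shares overlapped in their intervals, at 5.81% (1.91 to 13.0) and 10.45% (6.74 to 15.3). These cells held 33.1% and 48.5% of the UMIs of the 44 genes. The median thinned cell had 2 such UMIs in both libraries. Before thinning the median cell was at 1742 CPM in WT and 2365 CPM in CCR2 KO. How far the difference extends over the class was not tested. Of 34 genes past the filter, 14 were at least 2-fold higher in CCR2 KO (background 5.29%) and 0 lower (background 5.2%), with a median of 0.65 compared with -0.12 over all genes. Another 10 of the 44 genes did not pass. All 3 IFIT genes past the filter were among the 14, with Ifit3b at 0 in WT and 56.6 CPM in CCR2 KO, at least 4.73-fold higher, and Ifit3 at 15.9 and 134 CPM (3.0, 1.69 to 4.97). Cmpk2 was at 3.99 and 61.0 CPM (3.64), a ratio that rests on 1 UMI in WT, with an interval of 1.41 to 9.26. The lowest were Stat2 (23.9 and 15.9 CPM, -0.56), Irf9 (124 and 86.7 CPM, -0.51) and Oasl2 (514 and 453 CPM, -0.18), each with an interval that included 0. Within clusters, the sum was higher in CCR2 KO in 2 of 3, and in the cluster led by Il1r2, G0s2 and Ptgs2 it was 4346 CPM in 16 WT cells and 3580 CPM in 29 CCR2 KO cells.

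**Figure D4:**
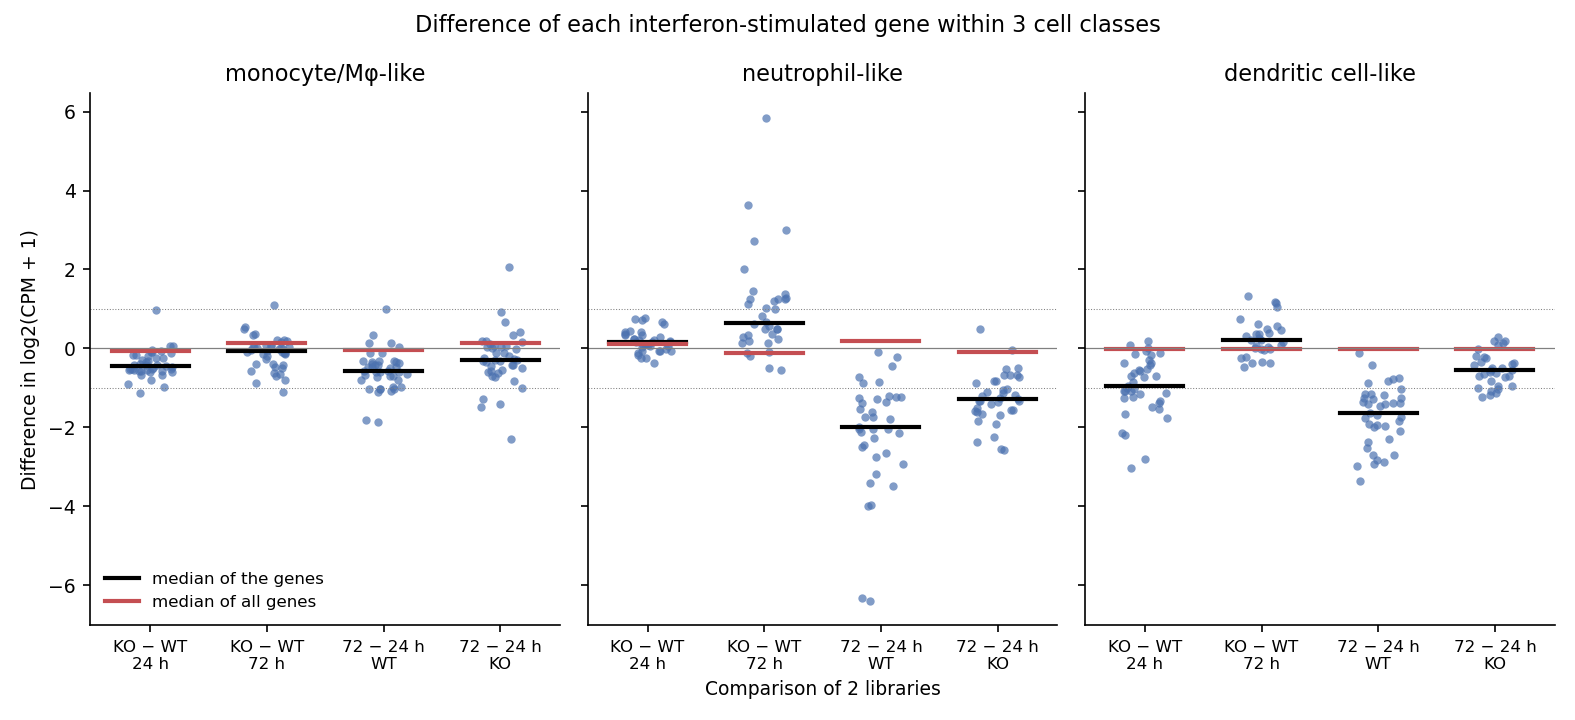
Difference in log2(CPM + 1) between 2 libraries (y axis) for each gene past the filter (points), within 3 classes (panels) and for 4 comparisons (x axis). Black lines are medians of the plotted genes, red lines medians of all genes past the same filter, and dotted lines mark 2-fold. Neutrophil-like cells show the lowest medians with time, -2.0 in WT and -1.29 in CCR2 KO, and genes at 0 in 1 library lie at values that depend on the pseudocount.

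Dendritic cell-like cells were compared over 62 to 153 cells per library. At 24 h, 18 of 39 genes past the filter were at least 2-fold lower in CCR2 KO (background 3.21%) and 0 higher (background 3.63%), with a median of -0.96 compared with -0.02 over all genes. Ifit3 was at 37.4 and 3.69 CPM in WT and CCR2 KO (-3.03), Ifi213 at 42.1 and 5.17 CPM (-2.81) and Rsad2 at 30.9 and 5.91 CPM (-2.21). Bst2 was at 582 and 587 CPM (0.01, -0.14 to 0.17), an interval that included 0, and Ifi205 was at 135 and 142 CPM (0.08).

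At 72 h, 4 of 30 genes were at least 2-fold higher in CCR2 KO (background 1.41%) and 0 lower (background 2.84%). These were Ifi205 (59.7 and 151 CPM, 1.33), Irf7 (31.0 and 71.4 CPM, 1.18), Bst2 (163 and 359 CPM, 1.14) and Usp18 (17.7 and 37.9 CPM, 1.06). In WT, 33 of 39 genes were at least 2-fold lower at 72 h than at 24 h (background 2.23%) and 0 higher (background 5.08%), with Isg15 going from 404 to 52.2 CPM (-2.93). In CCR2 KO it was 6 of 32 lower (background 3.03%) and 0 higher (background 3.79%), with Isg15 from 191 to 87.5 CPM (-1.12). Monocyte/Mφ markers summed to 3618, 993, 8148 and 1020 CPM in dendritic cell-like cells. They were higher in WT at both times, while the sum of the 44 genes was higher in WT at 24 h and lower at 72 h, and their part was not tested. At the main clustering resolution of 1, the cluster led by Ccl17, Cd209a and H2-DMb2 (56, 57, 90 and 72 cells) scored highest for plasmacytoid dendritic cell markers. It was counted as dendritic cell-like. At a clustering resolution of 2, a dendritic cell-like cluster led by Cd209d, Siglech and Ly6d scored highest for plasmacytoid dendritic cell markers. It held 3, 6, 3 and 15 cells, and its part in the differences between genotypes, those of Irf7 and Bst2 included, was not tested.

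In granulocytes of a cluster led by Siglecf the sum was 1377 CPM in 104 WT cells and 2096 CPM in 365 CCR2 KO cells at 72 h (0.61, 0.44 to 0.78), and 4385 CPM in 43 CCR2 KO cells at 24 h. WT gave only 11 such cells at 24 h. T cell-like cells were at 3366 CPM in CCR2 KO at 24 h and 2484 CPM at 72 h (-0.44, -0.54 to -0.33), and NK cell-like cells at 2292 and 2448 CPM (0.09, -0.10 to 0.29). In T cell-like cells of CCR2 KO at 24 h the GTPase Igtp was at 169 CPM and Isg15 at 207 CPM, compared with 153 and 1702 CPM in neutrophil-like cells, so the ratio of the 2 genes differed between these classes.

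Of 36 other genes of the pathway, 27 had a row in the count tables. The type I and lambda interferon genes on that list, with Ifnb1 among them, were not analysed here. Ifng, which encodes interferon gamma, was the only interferon gene with a row. Ifng was at 77.3, 54.4, 29.7 and 40.9 CPM in T cell-like cells, from 5, 20, 7 and 30 UMIs. In NK cell-like cells it was at 120, 56.99, 25.3 and 68.4 CPM, from 3, 9, 3 and 17 UMIs. Monocyte/Mφ-like cells had 0 to 0.275 CPM and neutrophil-like cells 0 to 1.37 CPM.

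Receptor chains were detected in both myeloid classes. Ifnar1 was at 118, 101, 108 and 72.9 CPM in monocyte/Mφ-like cells and 128, 107, 128 and 69.9 CPM in neutrophil-like cells. Ifnlr1, the receptor chain for lambda interferons, was at 19.1, 18.5, 7.97 and 11.5 CPM in neutrophil-like cells and at no more than 0.0812 CPM in monocyte/Mφ-like cells of any library. Neutrophils are a known target of lambda interferons in the mouse.

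Irf1, an interferon gamma-induced transcription factor, was at 47.4, 34.9, 66.1 and 57.3 CPM in monocyte/Mφ-like cells and at 236, 262, 191 and 164 CPM in neutrophil-like cells. In neutrophil-like cells it was lower at 72 h than at 24 h in both genotypes. Of the 27 pathway genes, 15 passed the filter in WT neutrophil-like cells over time, with 3 at least 2-fold lower (background 7.59%) and 0 higher (background 10.9%).

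The interferon-induced chemokines differed from each other. Cxcl10 was at 188, 175, 59.1 and 8.26 CPM in monocyte/Mφ-like cells and at 91.5, 401, 23.9 and 154 CPM in neutrophil-like cells, lower at 72 h in both classes and genotypes. Cxcl9, the more selective target of interferon gamma, was at 8.96, 77.0, 2.92 and 5.34 CPM in monocyte/Mφ-like cells, highest in CCR2 KO at 24 h. In monocyte/Mφ-like cells of CCR2 KO compared with WT at 24 h, 1 of 22 pathway genes was at least 2-fold higher (background 2.71%) and 0 lower (background 1.24%), and the median was -0.13. At 72 h it was 0 of 20 higher (background 5.22%) and 2 lower (background 2.51%).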

How the data were processed

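Single cell RNA sequencing libraries of CD45+ muscularis cells had been made with the 10x Genomics single cell 3′ solution. The authors aligned reads to GRCm38 and counted UMIs with Cell Ranger 3.0.2, and left out cells below 200 genes or above 10% mitochondrial UMIs. The deposited values are these counts per gene and cell, not normalized, and the annotation version is not given in the sources used here. Whether doublets had been removed is not stated. Scrublet, run per library, called 11 of 5804 cells, and these cells stayed in. Whether it missed doublets or few were left cannot be told apart.

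A cell was taken as non-immune where such markers gave at least 3 UMIs and 0.1% of the total, Ptprc gave none and Lyz2 at most 3, and 7 cells were removed. Cells were scaled to 10000 UMIs and clustered with leidenalg 0.10.2 through scanpy 1.11.5, under Python 3.11.15 (2000 variable genes without the 44 genes and the pathway list, 30 components, 20 neighbours, resolution 1). The 19 clusters were named from marker lists, requiring a score of 0.6, 3 markers at 20 CPM and leading genes that did not go against the name. The plasmacytoid list counted as dendritic cell. A cluster of 523 cells scored highest for the neutrophil list but failed this rule on its first gene. It was called by that gene, Siglecf, and 79 cells of another cluster stayed unnamed. Levels are CPM from summed UMIs, and ratios are differences of log2(CPM + 1) for genes with at least 20 CPM in 1 library and 10 UMIs in both. Intervals are exact Poisson or Clopper-Pearson intervals (95%) and cover counting error only. Those of ratios belong to the plain ratio, without the 1 CPM added, so at low levels they are not centred on the printed difference. A level of 0 was set to 3 counts for a bound. With 1 library per group no test across samples was possible, and no p-value is given. The calling step was tested on simulated counts. edgeR 4.0.16 (R 4.3.3) gave TMM factors as an alternative scaling.

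Named with their values were the 10 genes with the most UMIs, the 3 highest and 3 lowest ratios per comparison in monocyte/Mφ-like and neutrophil-like cells, the most abundant gene of each role group, and Ifng, Irf1, Cxcl9 and Cxcl10. A further gene under this rule is not reported here. Other genes in the text were chosen after their values were seen. The 44 genes, the lists and the marker classes were chosen with earlier results of these data known. Gene positions are from GENCODE M21 (GRCm38), in which all 44 symbols were found, and promoter windows from RefSeq (GRCm38.p6).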

Additional observations from a re-analysis of the deposited data

Results flagged for a closer look

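In dendritic cell-like cells the summed level of the 44 genes differed between genotypes in opposite directions at the 2 times. CCR2 KO minus WT was -0.65 at 24 h (62 and 63 cells) and 0.44 at 72 h (133 and 153 cells) on the log2 scale, with counting intervals of -0.71 to -0.59 and 0.39 to 0.50. With 1 library per group the difference between the 2 times was not tested. In the cluster led by Ccl17, Cd209a and H2-DMb2, which held most of these cells at 24 h, the sum was 4557 and 3016 CPM in WT and CCR2 KO at 24 h and 1439 and 2463 CPM at 72 h. At the main resolution of 1 that cluster itself scored highest for plasmacytoid dendritic cell markers (3.01) and was counted as dendritic cell-like. Cells that scored highest for plasmacytoid dendritic cell markers at a clustering resolution of 2 were 3 in WT and 15 in CCR2 KO at 72 h. Their part in the change of direction was not tested.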

How the results depend on the processing

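No paired analysis was possible because each group held 1 library, so leaving out a replicate was not an option either. Of 112 recomputed values, 66 stayed within the counting interval or within 1.5 times the count, 45 moved beyond it and 1 changed direction. The cause of each was not tested.

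For the sum, the mean over cells reversed the neutrophil-like difference between genotypes at 24 h (-0.039 in place of 0.19). It moved the genotype difference in monocyte/Mφ-like cells at 72 h to -0.22, and the time differences to -0.69 (WT) and -0.56 (CCR2 KO) in monocyte/Mφ-like and -1.84 and -1.25 in neutrophil-like cells. TMM scaling gave -0.45 and -0.28 between genotypes at 24 h and 72 h and -0.79 and -0.62 with time in monocyte/Mφ-like cells, and 0.73 between genotypes at 72 h and -1.74 with time in WT in neutrophil-like cells. A marker gate per cell, which took Siglecf-led cells into the neutrophil-like class (534 cells in CCR2 KO at 72 h), gave -0.66 with time in WT monocyte/Mφ-like cells and 0.23, -1.91 and -1.59 in neutrophil-like cells (genotype at 24 h, time in WT, time in CCR2 KO). In monocyte/Mφ-like cells the genotype difference at 72 h and the time difference in CCR2 KO were -0.18 and -0.49 at a clustering resolution of 2, and -0.26 and -0.54 with at most 5% mitochondrial UMIs (53 CCR2 KO cells at 72 h). Without Isg15 the time differences were -0.57 and -0.32 in monocyte/Mφ-like cells and -1.11 in CCR2 KO neutrophil-like cells.

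The number of genes at least 2-fold lower in CCR2 KO monocyte/Mφ-like cells was 1 at both times, beside 1.24% of all genes at 24 h and 2.51% at 72 h. At 24 h it was 3 with TMM (1.84%), 2 with the gate (1.28%) and 0 with a pseudocount of 5 CPM (0.953%). At 72 h it was 3 at resolution 2 (2.26%), 2 with TMM (4.19%) and 6 with at most 5% mitochondrial UMIs (4.53%), so the share over all genes moved too. High shares at 5 and at 20 of 1000 UMIs also differed from those at 10, as their definition requires. Removing cells with the highest Scrublet scores, at 0.8% per 1000 cells, was added after the data had been seen, and its 10 values stayed within those limits, as did the 8 without the interferon-inducible GTPases.

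Depth limited the classes of few or small cells, since 3 UMIs correspond to 11.96 CPM in neutrophil-like cells of WT at 72 h and to 180 CPM in the 11 Siglecf-led cells of WT at 24 h. Differences between libraries cannot be told apart from differences between the pools of mice.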

Other observations

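Sensors and signalling genes outside the 44 differed between the classes in which the 44 were high. Tmem173, which encodes the DNA sensing adaptor STING, was at 43.2, 44, 91.0 and 63.2 CPM in monocyte/Mφ-like cells, in the library order used above, and at 109, 151, 142 and 144 CPM in dendritic cell-like cells. In neutrophil-like cells it was at 8.20, 9.50, 0 and 0.884 CPM. Mavs, the adaptor of RIG-I and MDA5, was at 15.7 to 29.3 CPM in monocyte/Mφ-like cells and gave 0 to 0.974 CPM in neutrophil-like cells, while Myd88, the adaptor of most Toll-like receptors, was at 206 to 243 CPM there.

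Tlr3, a receptor for double-stranded RNA, was at 14.0, 20.7, 51.8 and 104 CPM in dendritic cell-like cells and 0 in neutrophil-like cells of all 4 libraries. A cluster led by Ube2c, Xcr1 and Itgae held 7, 5, 63 and 61 of the dendritic cell-like cells, and its part in the Tlr3 values was not tested. Socs1, an inhibitor of Jak kinases, was at 45.1, 107, 15.9 and 32.7 CPM in neutrophil-like cells, highest in CCR2 KO at 24 h and lower at 72 h in both genotypes. Socs3 was at 761, 808, 590 and 594 CPM there and moved less.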
